A study of Sus scrofa with 3 samples.

Results

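Described here are 6 genes of ketone body synthesis, use and transport, ACAT1, BDH1, BDH2, AACS, OXCT1 and SLC16A1. They were chosen by gene name from the 34579 features with a value in the deposited data. The names of 5 were found as such, and BDH2 was found under its gene number as LOC100522692, which the RefSeq table of pig assembly Sscrofa11.1 gives for that gene. All 6 were mRNA features and reached an FPKM of 1 in every library.

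Ketone bodies are the acetoacetate and 3-hydroxybutyrate that liver mitochondria make from acetyl-CoA when fatty acid oxidation is high. Acetyl-CoA is built up to acetoacetate in the mitochondria, a dehydrogenase reduces it to 3-hydroxybutyrate, monocarboxylate transporters carry both out of the cell, and other tissues turn them back into acetyl-CoA. Hepatocytes of other mammals are known to lack much of the enzyme that starts ketone use, and pig liver is known for weak ketone production.

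Liver RNA came from male Chinese Wuzhishan miniature pigs, 6 to 7 months old by the labels. In the study's methods this is the age at which the pigs were obtained, so the pigs were older, by an acclimation and a feeding period, when the livers were taken. Every group ate feed rich in fat and cholesterol. The 3 groups were intact, sham-operated males (IM), surgically castrated males (CM), and castrated males given weekly intramuscular testosterone propionate from the day of castration (CMT). The labels describe each library as a pool of 3 pigs, while the methods describe larger groups and do not say how many pigs of a group were pooled. There was 1 library per group, so the variation between pigs is unknown in these data. No difference between groups has a replicate check within them. Apart from the libraries, the study measured CPT1A and HADH, both described below, by quantitative PCR in several pigs per group. CPT1A protein was also measured there, by western blot. The study reports both transcripts and the protein as lower in CM and higher in CMT. The 6 ketone body genes had no such check. No p-value was computed here. The diet was shared by all groups, so none of the comparisons bears on the diet itself.

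FPKM stands for fragments per kilobase of transcript, scaled to the mapped fragments of the library. In the deposited values each read count was divided by the length in kilobases and by 2.51 (IM), 3.42 (CM) or 2.04 (CMT), divisors that are not proportional to the reads of the libraries, so a level is comparable within these files only. The values are whole multiples of a step, from which the number of reads behind most values was recovered. The recovered reads came to 32197628 (IM), 36126730 (CM) and 25419901 (CMT). Intervals given here are 95% exact intervals on these reads (Poisson for a level, binomial for a ratio of libraries or of genes). They cover counting error only, and they are too narrow if each mate counted as a read. The defining hepatocyte markers were high in every library, with ALB (albumin) at the top and ASGR1 between 3592 and 5930 FPKM, while ADIPOQ and LEP of adipocytes and UMOD of kidney were listed at 0 in all 3. PLIN1, the other adipocyte marker, was at 11.6 FPKM (IM), 9.80 (CM) and 8.70 (CMT).

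A gene was counted as past the fold threshold at a ratio of at least 1.5. Between CM and IM, 3 of the 6 genes were past it, against 23.2% of the 15613 mRNA features that reached an FPKM of 1 in each of the 3 libraries. All 3 (BDH1, ACAT1 and AACS) were lower in CM, against 12.1% of all features, and 0 were higher, against 11.1%. Between CMT and CM the same 3 genes were past it, all higher in CMT, against 25.7% of features in either direction and 12.1% in that direction, and 0 were lower, against 13.5%. These comparisons share the CM library. Between CMT and IM only AACS was past it, higher in CMT, against 16.8% of features in either direction, 6.67% higher and 10.1% lower. CM lay at least 1.5-fold below both other libraries for 3 of 6 genes and for 7.12% of all features. It lay as far above both for 0 of 6 and for 6.87% of all features, and CMT lay as far below both for 0 of 6 and for 5.44%. Because the genes were chosen with earlier results of these libraries known, the counts describe the list and support nothing further.

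**Figure D1:**
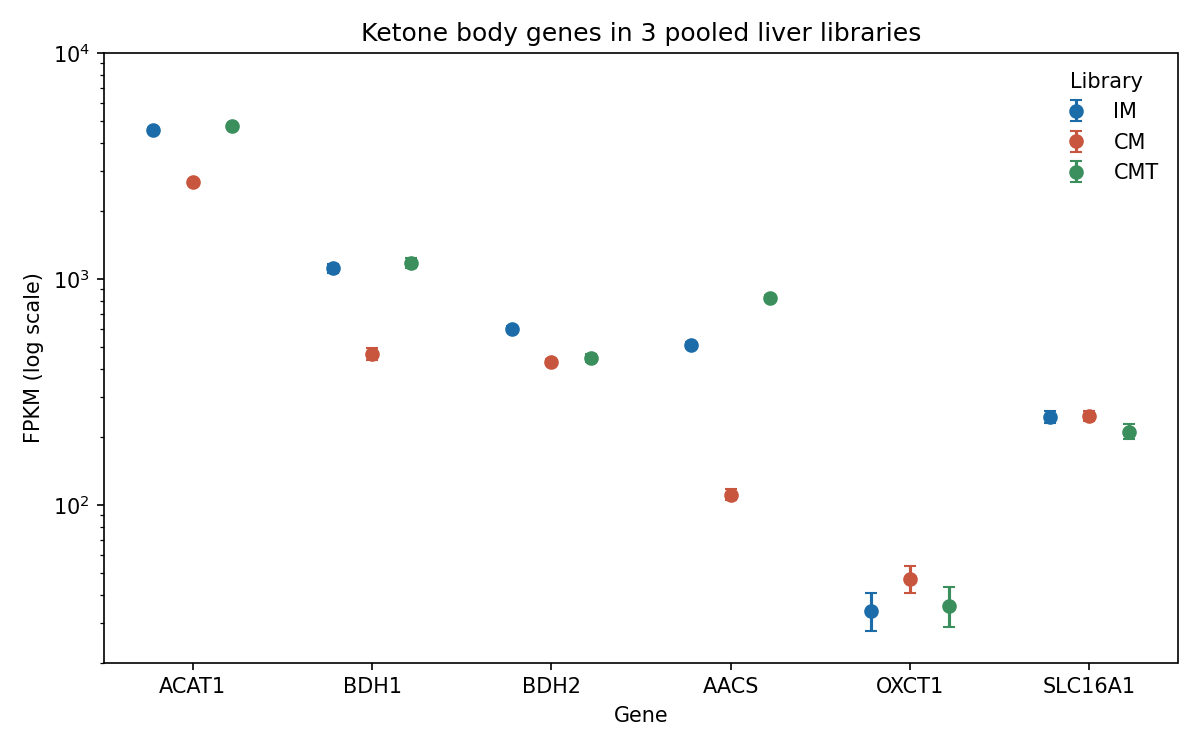
FPKM (log scale) of the 6 ketone body genes in the IM, CM and CMT libraries, 1 pooled library each, with bars for the 95% Poisson interval of the recovered reads. ACAT1, BDH1 and AACS have their lowest point in CM, OXCT1 lies at 33.7 to 46.8 FPKM in all 3, and SLC16A1 lies at 210.1 to 247 FPKM.

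ACAT1 encodes the mitochondrial thiolase that joins acetyl-CoA units to acetoacetyl-CoA at the start of ketone synthesis and splits it again in ketone use. Its level was 4579 FPKM (IM), 2689 (CM) and 4738 (CMT). It was the highest of the 6 genes per length of transcript, at percentile 98.2, 97.6 and 98.3 among the expressed mRNA features of the 3 libraries. CM stood below the others by 1.70-fold against IM (interval 1.65 to 1.76), and CMT was 1.76-fold above CM (1.71 to 1.82). CMT and IM differed by 0.05 on the log2 scale. ACAT1 was the gene closest to the 1.5-fold threshold among the 3 that passed it in CM, and BDH2, at 1.40-fold, was the closest outside.

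BDH1 encodes the mitochondrial dehydrogenase that converts acetoacetate and 3-hydroxybutyrate into each other. It was at 1115 FPKM (IM), 465 (CM) and 1175 (CMT), with Poisson intervals of 1066 to 1166, 438 to 493 and 1120 to 1233. CM was 2.40-fold below IM (2.23 to 2.58), and CMT was 2.53-fold above CM (2.34 to 2.73). The IM and CMT levels could not be separated at this depth, with a ratio of 1.05 (0.986 to 1.13).

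2 further features carry this enzyme's description. LOC100155725 and LOC100737308 are both described in the study's annotation as mitochondrial-like forms of the same dehydrogenase, and neither gene number is in the Sscrofa11.1 table, which has BDH1. Reads may have been shared or divided among the 3 features, so their values may not be independent of each other. LOC100155725 was at 1274 FPKM (IM), 538 (CM) and 1482 (CMT). LOC100737308 was at 726 (IM), 306 (CM) and 856 (CMT). Both were 2.37-fold lower in CM than in IM, close to the 2.40-fold of BDH1. In CMT they were 1.16-fold (1.11 to 1.22) and 1.18-fold (1.13 to 1.23) above IM, so the 3 features moved alike between CM and IM and spread a little more in CMT. The recovered lengths were 694 bases for BDH1, 1074 for LOC100155725 and 2376 for LOC100737308, each the smallest length that makes the reads whole.

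BDH2 encodes a cytosolic dehydrogenase of the same reaction type. It did not share the CM pattern of BDH1. Its level was 599.6 FPKM (IM), 428 (CM) and 445 (CMT), so that both castrated groups lay below the intact one. CM was 1.40-fold below IM (1.34 to 1.46) and CMT was 1.35-fold below IM (1.28 to 1.42), neither past the threshold. The ratio of CMT to CM was 1.04 (0.987 to 1.09). Its sign changed with the scaling of the libraries, from 0.06 on the log2 scale as deposited to -0.19 with columns scaled to equal sums.

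AACS encodes the cytosolic acetoacetyl-CoA synthetase, which activates acetoacetate for the synthesis of fatty acids and sterols rather than for oxidation. It had the widest range of the 6 genes. Its level was 509 FPKM (IM), 111 (CM) and 822 (CMT), from 4080, 1208 and 5352 reads. CM was 4.60-fold below IM (4.31 to 4.91), and CMT was 7.43-fold above CM (6.98 to 7.91). AACS was also the only one of the 6 past 1.5-fold between CMT and IM, at 1.61-fold higher in CMT (1.55 to 1.68). Its percentile among expressed features went from 90.4 in IM to 69.6 in CM and 93.4 in CMT.

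OXCT1 encodes succinyl-CoA:3-ketoacid transferase, the mitochondrial enzyme that starts ketone use. It was the lowest of the 6 genes per length of transcript. Its level was 33.7 FPKM in IM (27.7 to 40.5), 46.8 in CM (40.7 to 53.5) and 35.5 in CMT (28.8 to 43.4), from 112, 212 and 96 reads. CM was 1.39-fold above IM (1.10 to 1.76), and CMT was at 0.759 times CM (0.590 to 0.971), neither past 1.5-fold in the deposited values. ACAT1 exceeded OXCT1 136-fold (IM), 57.5-fold (CM) and 133-fold (CMT) in FPKM. In bulk liver, more cells of a type and more RNA per cell cannot be told apart. The 5 T and NK cell markers (CD3E, CD3D, CD2, CD8A and NKG7) were likewise higher in CM than in IM and lower in CMT than in CM, with a summed level of 403 FPKM (IM), 550.3 (CM) and 305 (CMT), although their CMT sum lay below that of IM and OXCT1 did not. The 4 bile duct markers summed to 89.4, 159 and 102 FPKM, with KRT7 (LOC100626722) at 12.9 (IM), 46.1 (CM) and 21.8 (CMT). In the same order, KRT19 (LOC100515339) was at 36.5, 44.3 and 34.7, EPCAM at 36.6, 62.6 and 41.4, and SOX9 at 3.45, 6.34 and 4.25. The 3 markers of dividing cells were also all higher in CM than in IM and lower in CMT than in CM, with sums of 206, 305 and 250.4 FPKM. Other cell types differed. Of the 6 Kupffer cell and macrophage markers found, 5 were lower in CM than in IM, with sums of 9652, 9410 and 10703 FPKM. Of 5 liver endothelium markers, 4 were lower in CM, with sums of 3302, 2714 and 3058. The 5 stellate cell markers summed to 428, 405 and 343 FPKM, with 3 lower in CM than in IM. The part of these cells in the OXCT1 values was not tested.

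SLC16A1 encodes monocarboxylate transporter 1, which moves lactate and ketone bodies across the cell membrane together with protons. As deposited, it was level between IM and CM, with 245 FPKM (IM), 247 (CM) and 210.1 (CMT). The ratio of CM to IM was 1.01 (0.929 to 1.10), and CMT was 1.18-fold below CM (1.07 to 1.29) and 1.16-fold below IM (1.05 to 1.29). This depends on the scaling of the libraries. With equal column sums the ratio of CM to IM was 1.21, and with the totals of recovered reads 1.23, both outside the interval. Under these scalings CMT was 1.40-fold and 1.39-fold below CM. BSG, the chaperone that brings it to the membrane, was at 1895 FPKM (IM), 1416 (CM) and 1974 (CMT).

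In both comparisons with CM, the hepatocyte markers moved less than BDH1, ACAT1 and AACS. Between CMT and IM, ALB moved more than BDH1 and ACAT1, with 690375 FPKM in IM and 445509 in CMT. Of the 7 markers, 6 were lower in CM than in IM and none was 1.5-fold apart, while ASGR1 was more than 1.5-fold higher in CMT than in CM. Their summed level in CM was 0.747 times that in IM, carried mostly by ALB, and in CMT it was 0.994 times that in CM. The part of hepatocyte content in the values of the 3 genes was not tested.

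The scaling of the libraries moves the ratios of all genes, and it decides whether genes near the threshold pass it. With libraries scaled to the totals of their recovered reads, the median over all features compared was 0.26 for CM against IM (log2 ratio), against -0.02 as deposited, and the share of features past 1.5-fold that were higher in CM was 77.4% against 48.0%. For CMT versus CM the share higher in CMT was 23.3% against 47.3%. With the libraries scaled by their median ratio, which brings the median over all features to about 0, the log2 ratios of CM to IM were -2.18 for AACS, -1.24 for BDH1, -0.75 for ACAT1, -0.46 for BDH2, 0.50 for OXCT1 and 0.04 for SLC16A1. AACS and BDH1 stayed past 1.5-fold in both CM comparisons under each of the 4 scalings, but their folds moved. With equal column sums and with recovered read totals, CM was 3.85-fold and 3.79-fold below IM for AACS. For BDH1 it was 2.01-fold and 1.97-fold below, and for BDH2 1.17-fold and 1.15-fold. All of these lie outside the counting intervals given above. ACAT1 was under 1.5-fold with equal column sums and with the totals of recovered reads, at -0.51 and -0.49 for CM versus IM. OXCT1 passed it under those same scalings, at 0.73 and 0.75 higher in CM. The count past the threshold was 3 under these scalings too but held OXCT1 in place of ACAT1. CM then lay 1.5-fold below both other libraries for AACS and BDH1 only, and above both for OXCT1. Of the 15613 features, 3239 were past it higher in CM than in IM and 1073 lower with equal column sums. With recovered read totals these were 3432 and 1003.

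**Figure D2:**
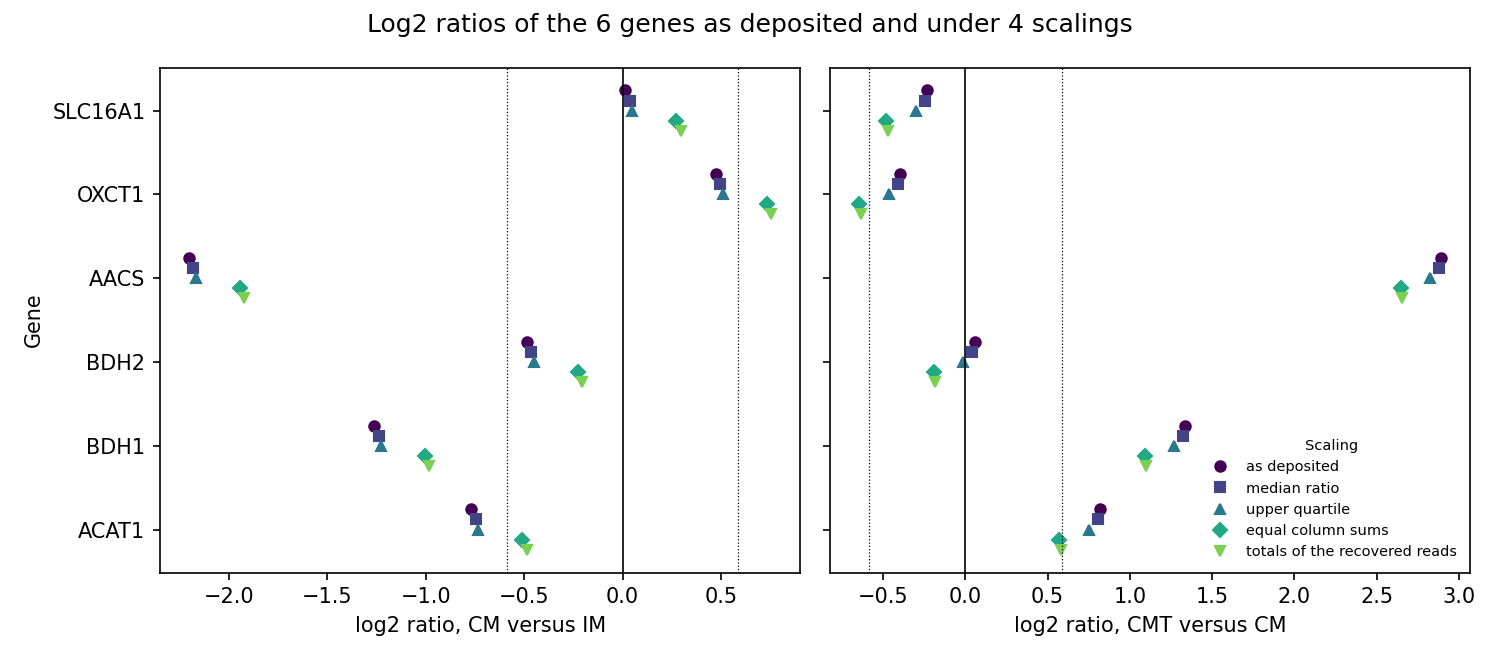
Log2 ratios of the 6 genes for CM versus IM (left) and CMT versus CM (right), as deposited and under 4 scalings of the libraries; dotted lines mark 1.5-fold. AACS and BDH1 lie outside the dotted lines under all of them, while ACAT1 and OXCT1 cross a line with equal column sums or recovered read totals.

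Ratios between genes inside a library do not depend on that scaling. BDH1 was low against ACAT1 in CM, with a ratio of 0.244 in IM (0.232 to 0.256), 0.173 in CM (0.162 to 0.184) and 0.248 in CMT (0.235 to 0.262). AACS had a ratio to ACAT1 of 0.111 in IM (0.107 to 0.115), 0.0412 in CM (0.0387 to 0.0438) and 0.174 in CMT (0.168 to 0.180). It was thus lowest in CM and highest in CMT, with no overlap of the intervals. SLC16A1 went the other way relative to ACAT1, with 0.0534 (IM), 0.0919 (CM) and 0.0444 (CMT). BDH2 to ACAT1 had the same order, with 0.131 (IM), 0.159 (CM) and 0.0940 (CMT).

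**Figure D3:**
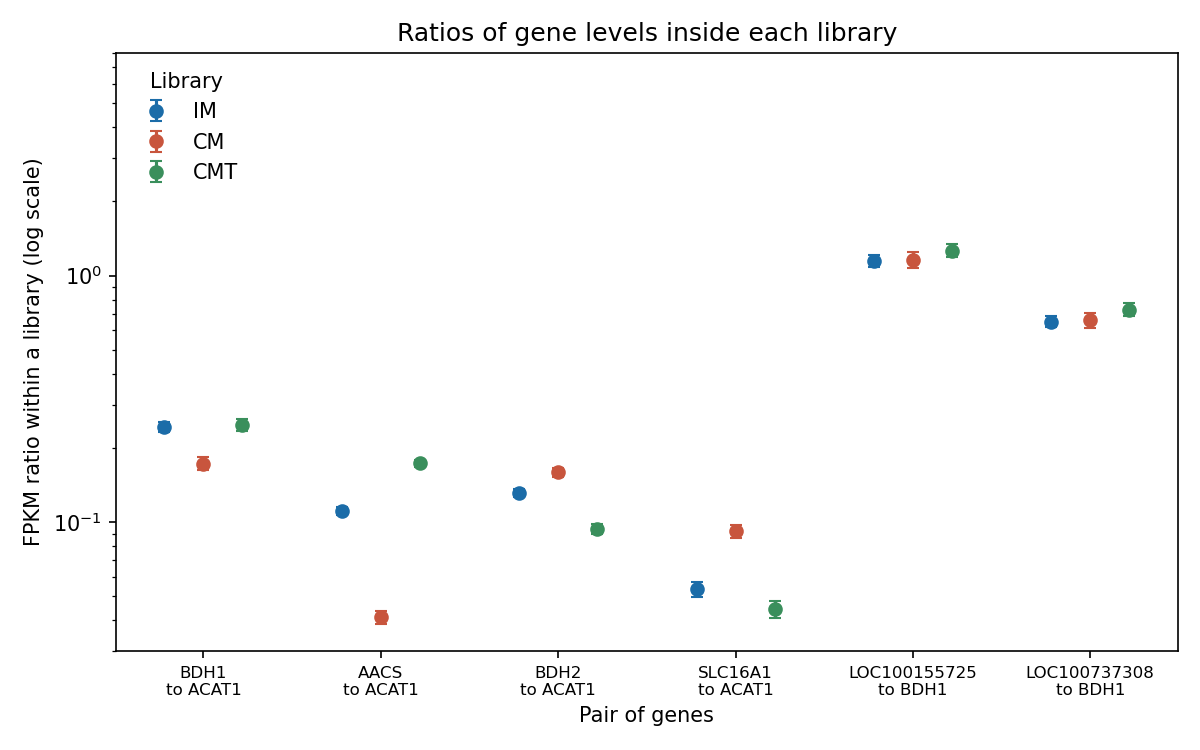
Ratio of the FPKM values of 2 genes inside each library (log scale), with 95% exact binomial intervals, for 6 pairs of genes. BDH1 and AACS are low against ACAT1 in CM, BDH2 and SLC16A1 are high against it there, and the 2 further dehydrogenase features stay between 0.651 and 1.26 times BDH1.

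The rest of the pathway was taken as a list of 40 genes, all found in the files, of which 34 reached an FPKM of 1 in each library. The list was also chosen with earlier results known. Between CM and IM, 3 of these (ACAA2 and EMB among them) were at least 1.5-fold higher in CM, against 11.1% of all features, and 14 were lower, against 12.1%, with a median log2 ratio of -0.45 against -0.02 over all features. Between CMT and CM, 15 were higher in CMT, against 12.1% of all features, and 5 lower, against 13.5%, with a median of 0.54 against 0.01. Between CMT and IM, 1 (HMGCS1, of sterol synthesis in the cytosol) was higher, against 6.67% of all features, and 9 were lower, against 10.1%, with a median of 0.03 against -0.01. CM lay 1.5-fold below both other libraries for 10 of the 34, against 7.12% of all features. EMB, a partner of monocarboxylate transporters, rested on 28 reads (IM), 61 (CM) and 30 (CMT).

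**Figure D4:**
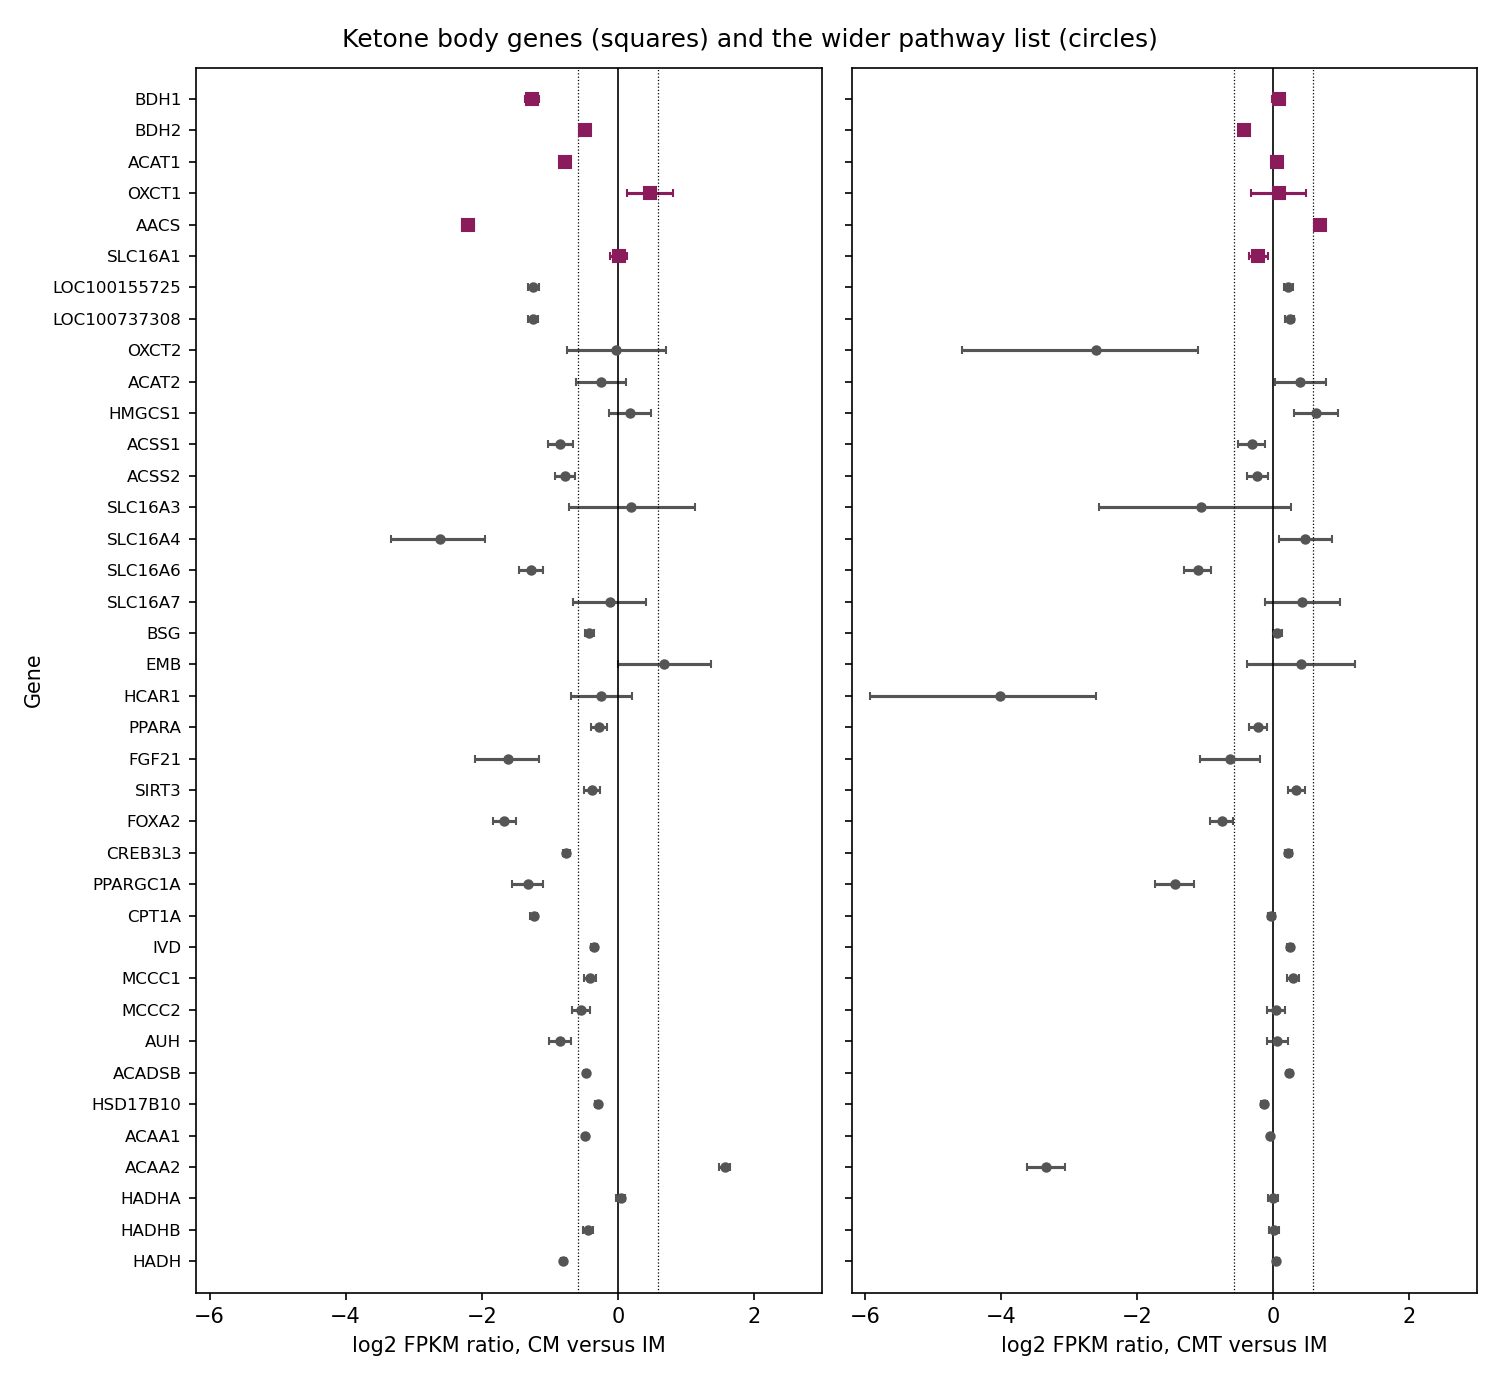
Log2 FPKM ratios of CM versus IM (left) and CMT versus IM (right) for the 6 ketone body genes (squares) and 32 of the 34 expressed genes of the pathway list (circles), with 95% exact binomial intervals on recovered reads (none for ACAA1, whose reads were not recovered) and dotted lines at 1.5-fold. Most points lie left of 0 in CM, and ACAA2, HCAR1 and OXCT2 lie far to the left in CMT.

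Of the thiolases and their partners, ACAA2, the mitochondrial 3-ketoacyl-CoA thiolase, was at 1004 FPKM (IM), 2982 (CM) and 99.4 (CMT). Its order was the reverse of that of ACAT1, with CM 2.97-fold above IM (2.81 to 3.15) and CMT 10.1-fold below IM (8.39 to 12.3). HADHA and HADHB, the trifunctional protein of long-chain oxidation, were within 1.5-fold in all comparisons, at 906, 933 and 900.1 FPKM for HADHA in IM, CM and CMT. HADH, the short-chain dehydrogenase, followed ACAT1 with 2727, 1564 and 2803 FPKM. All 6 genes of leucine and isoleucine breakdown, which feeds acetoacetate and acetyl-CoA into the pathway, had their lowest value in CM as deposited. For HSD17B10 this order depends on the scaling. Its log2 ratio of CMT to CM was 0.16, while scaling to the totals of recovered reads lowers that ratio by 0.24. Only AUH was past 1.5-fold between CM and IM, a share near the 12.1% of all features. Between CMT and CM, 4 were past it, against 12.1% of all features higher in CMT. Their log2 ratios were 0.91 (AUH), 0.70 (ACADSB), 0.69 (MCCC1) and 0.60 (IVD). With the totals of recovered reads only AUH stays past it. IVD falls within it under the median ratio scaling too. The log2 ratio of CM to IM for AUH, -0.85, is raised by 0.28 with recovered read totals and then lies within 1.5-fold. AUH was at 282 FPKM (IM), 157 (CM) and 294 (CMT).

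Among the 5 other genes of use, 2 were past 1.5-fold lower in CM than in IM as deposited, against 12.1% of all features. These were ACSS1 and ACSS2, the acetyl-CoA synthetases of mitochondria and cytosol. Their log2 ratios were -0.85 and -0.77. Scaling to the totals of recovered reads raises both by 0.28, to within 1.5-fold. ACSS2 was at 217 FPKM (IM), 127 (CM) and 184 (CMT). ACAT2, the cytosolic thiolase, was at 56.4, 47.5 and 74.2 FPKM, and ACAT1 exceeded it at least 56.6-fold in each library. OXCT2, the paralog of OXCT1 known from testis, rested on 30 reads (IM), 40 (CM) and 4 (CMT).

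SLC16A6, a monocarboxylate transporter linked to ketone export from liver, was at 144 FPKM (IM), 59.8 (CM) and 66.7 (CMT). It was 2.41-fold lower in CM than in IM (2.14 to 2.73) and stayed 2.16-fold below IM in CMT (1.88 to 2.49). SLC16A4 was at 21.7 FPKM (IM), 3.55 (CM) and 30.02 (CMT), from 103, 23 and 116 reads. SLC16A7 (transporter 2) and SLC16A3 (transporter 4) were low, at 17.6 to 25.7 and 3.17 to 7.57 FPKM, and SLC5A8 was listed at 0 in all libraries. SLC16A1 had the highest FPKM of the SLC16 transporters on the list in each library.

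Of the receptors, HCAR1, a lactate receptor deposited under its older name GPR81, was at 31.2 FPKM (IM), 26.3 (CM) and 1.92 (CMT), from 80, 92 and 4 reads. HCAR2, the receptor for 3-hydroxybutyrate, had 1 or 2 reads per library. FFAR3, a receptor for short-chain fatty acids, had 70 reads (IM), 2 (CM) and 60 (CMT). Its ratio of IM to CM was 47.7, with an interval of 12.7 to 402, and it was not among the 34 genes because its CM level was 0.265 FPKM.

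Of the 7 control genes, all were lower in CM than in IM as deposited, 5 of them past 1.5-fold, against 12.1% of all features. CPT1A, which lets long-chain fatty acids into mitochondria, was at 831 FPKM (IM), 353 (CM) and 812 (CMT). CREB3L3, a liver transcription factor of fasting, was at 2838, 1682 and 3300 FPKM. Its log2 ratio of CM to IM, -0.76, comes within 1.5-fold under the totals of recovered reads. FGF21, a fasting hormone, was at 34.8, 11.4 and 22.5 FPKM, and FOXA2 at 174, 54.6 and 102. PPARGC1A was at 152 FPKM in IM and 60.8 and 55.6 in CM and CMT, whose ratio was 0.914 (0.738 to 1.13). PPARA, the nuclear receptor of the fasting response, was at 318, 264 and 271 FPKM, within 1.5-fold in every comparison. Its log2 ratio of CM to IM was -0.27, and scaling to the totals of recovered reads raises that ratio by 0.28. The sign for PPARA thus depends on the scaling.

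Genes with a pattern like that of each of the 6 were sought among the 12127 mRNA features at FPKM 10 or more in each library, by the distance between pairs of log2 ratios (CM to IM and CMT to CM) over these 3 libraries. AACS had few neighbours. Only 1 feature, ASB4, lay within 0.1 of it, at 87.6 FPKM (IM), 19.9 (CM) and 142 (CMT), and LOC100517803 came next at 0.20. BDH1 had 12 features within 0.1, SLC45A2 and PLBD2 first. ACAT1 had 62, with PTDSS1 and LOC102164492 nearest, BDH2 had 97, with KLHL5 and KIFC2 nearest, OXCT1 had 143, with CTCF and RNF219 nearest, and SLC16A1 had 389, with RBMX and NSRP1 nearest. With 3 libraries, such likeness rests on 2 ratios per gene. For OXCT1 the counting intervals of these log2 ratios were 0.14 to 0.82 and -0.76 to -0.04, wider than the distance of 0.1. Its neighbours and their number are therefore not settled at this depth.

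The nearest expressed genes on either side, in the order of Sscrofa11.1, did not share the CM values of BDH1, ACAT1 and AACS. DLG1 beside BDH1 had a log2 ratio of CM to IM of -0.22, at only 3.42 to 3.99 FPKM. CUL5 beside ACAT1 had 0.02, and BRI3BP beside AACS had -0.28. For OXCT1, with a ratio of 0.47, the neighbour C16H5orf51 was close at 0.41, while C6 on the other side had -0.58.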

How the data were processed

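Liver RNA of each group was pooled by the authors before poly-A selection and paired-end sequencing on an Illumina instrument. Per the labels and the study's methods, reads were checked with FastQC and mapped to Sscrofa10.2 with TopHat. The program that counted the reads and the annotation are not given in the sources used here. The authors deposited 1 table of FPKM values per library, with 34579 features, of which 22945 were mRNA. The library divisor within these values (2.51 in IM, 3.42 in CM, 2.04 in CMT) is not proportional to the reads, so ratios between libraries depend on the scaling.

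The deposited values were used without rescaling or pseudocount. Reads were recovered for 23090 features, 95.1% of those above 0, as the smallest length up to 10000 bases that makes all 3 values whole. A common factor can be lost, which widens intervals. The recovery was tested on simulated data. Comparisons took the mRNA features that reached an FPKM of 1 in each library, at 1.5-fold, the fold the study used. As alternatives, the minimum was set to 10 or dropped, and the others were 2-fold, 4 scalings, a pseudocount of 1, and an interval without 1. Of the 40 pathway genes, 35 were matched by symbol, 2 by gene number and 3 by an older symbol in the RefSeq table. The named genes are the 6 genes, the pathway list and, for each of the 6, the 2 features nearest in pattern. The genes, lists and rules were chosen with earlier results of these data known. Results for some genes of the lists are not reported here. No sequence is printed, and coordinates are left out because the RefSeq table is of another build. Values were computed in Python 3.11.15 (scipy 1.17.1, numpy 2.4.6, pandas 2.3.3) and drawn with matplotlib 3.10.9.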

Additional observations from a re-analysis of the deposited data

How the results depend on the processing

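Of 54 recalculated counts of genes past the fold threshold, 50 stayed within 1.5 times the count reported. That rule is wide, and a pathway count of 15 in place of 20 (CMT versus CM, equal column sums) met it. Of 90 recalculated log2 ratios of the 6 genes, 69 stayed within the counting interval and 21 moved outside it. With a threshold of 2-fold, the pathway list had 9 genes past it in CM versus IM (17 at 1.5-fold) and 9 in CMT versus CM (20 at 1.5-fold), and of the 6 ketone body genes 0 passed in CMT versus IM (1 at 1.5-fold, AACS). The share of all features past 2-fold was not computed, so these counts have no background beside them. With libraries scaled to the totals of the recovered reads, the pathway list had 11 genes past 1.5-fold in CM versus IM, because that scaling moves every log2 ratio by 0.28. The 11 are of the 34 expressed genes of the list. Under that scaling 3432 of the 15613 features were past 1.5-fold higher in CM and 1003 lower. No paired analysis was possible because each group had 1 library. Depth limits OXCT1, OXCT2, HCAR1, HCAR2 and FFAR3, where few reads leave wide intervals.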

Other observations

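Some genes had a CMT value far below both other libraries, in a ranking made after values had been seen. It took 12391 mRNA features at FPKM 10 or more in IM and CM and at 1 or more in CMT, by the fold below the nearer of the 2 other libraries. HCAR1 (deposited as GPR81) ranked 6 at 13.7-fold, and ACAA2 ranked 13 at 10.1-fold. CYP2E1, a cytochrome P450 that oxidises ethanol and acetone, ranked first with 3148 FPKM in IM, 14546 in CM and 54.4 in CMT. CA3, a carbonic anhydrase, was at 444, 1690 and 8.09 FPKM, and CYP1A2, an aryl hydrocarbon receptor target, was at 3502, 5294 and 101. GPT2, a mitochondrial alanine aminotransferase, was at 241, 648 and 17.0 FPKM. AQP9, the glycerol channel of hepatocytes, was at 427, 795 and 36.6. By this measure none of ACAT1, BDH1, BDH2, AACS, OXCT1 and SLC16A1 was 1.5-fold below both other libraries in CMT. Of the 15613 mRNA features at FPKM 1 or more in each library, 5.44% had this pattern. Its absence among 6 genes is near that share.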
